A study of Mus musculus with 78 samples.

Results

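The comparison set the striatum of C57BL/6J mice given D-methamphetamine for 3 days against that of mice given saline for the same 3 days, over all genes on the array. It holds 6 of the 78 arrays of the series, the 3 labelled methamphetamine, drug treatment, day 3 and the 3 labelled saline, drug treatment, day 3. Mice were injected into the abdominal cavity 2 times a day for up to 12 days with rising doses. The first methamphetamine dose was 2 mg/kg and the last 8 mg/kg. Heroin was given on the same schedule, and its first and last doses were higher in mg/kg than those of methamphetamine. The part of dose in any difference between the drugs was not tested. The dose reached on day 3, the interval between the last injection and death, the hour of death, and the age and sex of the mice are not given in the labels. No group carried a transgene, and the labels give no strain other than C57BL/6J. Nothing in the labels beyond a replicate number says that the 3 samples of a group came from separate animals. The p-values measure the spread between samples of a group, pooled over all 25 groups of the series, and that spread may be technical. Arrays of methamphetamine on days 6 and 12, saline on days 6 and 12, heroin on day 3 and untreated (naive) mice are used only as points of reference. Values are log2 intensities after quantile normalization, and a difference is methamphetamine minus saline on that scale.

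Methamphetamine enters dopamine terminals through the dopamine transporter and drives dopamine out of them, and the striatum receives the densest dopamine input of the forebrain. Most striatal neurons are medium spiny neurons, which carry either the D1 receptor (Drd1) with the peptide genes Tac1 and Pdyn, or the D2 receptor (Drd2) with Penk. Medium spiny neurons also hold a running circadian clock, in which CLOCK and ARNTL bind E-boxes and switch on Per, Nr1d and Dbp genes and Ciart, whose products feed back on the clock or pass its rhythm on.

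The 6 arrays had striatal profiles. The mean level of 14 medium spiny neuron markers lay between 13.08 and 13.21 on them. Over all 78 arrays, these 6 included, it ran from 10.82 to 13.28. Drd1, Drd2, Penk, Pdyn and Tac1 were above the array's median on all 6. The mean level of 11 hippocampal markers lay between 9.68 and 9.81 on them and reached 11.39 in the series. Methamphetamine day 1 arrays, known from earlier results to stand apart with hippocampal markers, entered the shared fit. Median signal lay between 98.5 and 170.2 intensity units, against 95.05 to 184.1 in the whole series, and the number of arrays limits the precision. The first principal component over all arrays, 30.4% of the variance, followed the slide. No slide held both groups: each group had 1 array among the 3 slides of one run of slide numbers and 2 among the 10 slides of the other. Methamphetamine replicates 2 and 3 lay on the slides with the highest and the lowest mean of that component, 0.185 and -0.265. The slide term of the fit was therefore estimated through the other groups on those slides, and many small values moved without it. Of 386 genes in the lists or named, 117 changed sign between the fitted difference and that of the plain means, and 259 differed by more than 1.5 times. Values without the slide term therefore stand beside many of those below, and a value printed alone is not thereby shown to be stable.

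On day 3 no gene passed the threshold. Of 12371 genes, limma called 0 at an adjusted p under 0.05 (0%), and 458 had an unadjusted p under 0.05 (3.7%), 254 higher (2.05%) and 204 lower (1.65%) after methamphetamine. The smallest adjusted p was 0.128, for Ciart, followed by 0.201 for Adamtsl1 and 0.398 for Rhpn2. With array weights in the fit, Ciart alone passed, at a log2 difference of 0.67 and an adjusted p of 0.0170. Over all 23 other settings its adjusted p ranged from that value to 0.9998. The fitted differences were small, with all but the outer 5% of genes at either end between -0.181 and 0.191, and 10 genes were above 0.5 and 13 below -0.5. The 95% interval lay within 1 log2 unit of 0 for 12298 genes (99.4%) and within 0.5 for 11462 (92.7%). For most genes the fit with the slide term thus bounded the difference in intensity, while a smaller difference could not be detected with a median SE of 0.112. The intensities had no background correction, so for dim probes these intervals bound the difference in RNA less closely. The arrays of the groups did not overlap for 705 genes (5.7%), 509 higher (4.11%) and 196 lower (1.58%).

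**Figure D1:**
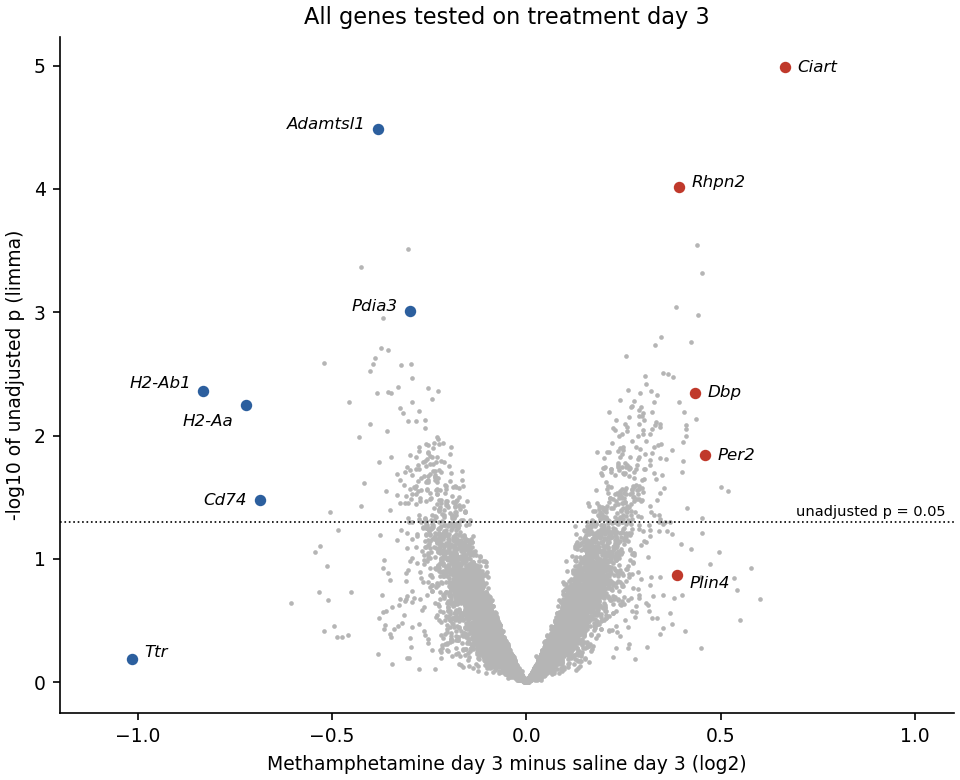
Each point is 1 of 12371 genes, placed by its log2 difference on day 3 (x axis) and the -log10 of limma's unadjusted p (y axis), with a dotted line at 0.05. Ciart stands highest at 0.67, H2-Ab1, H2-Aa and Cd74 lie far to the left, and Ttr has the most negative labelled difference, -1.02, with a high p.

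Ciart encodes a repressor of the CLOCK and ARNTL pair and is itself driven by the clock. Its level was 9.87, 9.42 and 10.02 on methamphetamine replicates 1, 2 and 3 and 8.98, 9.28 and 9.34 on saline replicates 1, 2 and 3. All methamphetamine arrays were above all saline arrays, with replicate 2 the closest to them. The log2 difference was 0.67 with an SE of 0.135, a 95% interval of 0.39 to 0.94, a 1.59-fold difference, and limma's unadjusted p was 1.035e-05. The difference was 0.73 within the first run of slide numbers and 0.48 within the second. Both other Ciart probes on the array were also higher, by 0.54 with no overlap and by 0.28 with overlap. The plain means differed by 0.57, and leaving out any 1 of the 6 arrays gave 0.61 to 0.73 in the fit.

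The promoter of Ciart is printed because the gene led the comparison, with that of Dbp, the clock output gene with the next smallest p. Both are RefSeq windows on GRCm38.p6 from 250 bases before to 50 after the start, 5′ to 3′ on the gene's strand, chr3:95882179-95882478 (minus strand) and chr7:45704997-45705296 (plus strand). Capitals mark the E-box CACGTG. Both strands were searched for it and for the D-box TTANGTAA, and no match of one overlapped the other in these windows.
Ciart: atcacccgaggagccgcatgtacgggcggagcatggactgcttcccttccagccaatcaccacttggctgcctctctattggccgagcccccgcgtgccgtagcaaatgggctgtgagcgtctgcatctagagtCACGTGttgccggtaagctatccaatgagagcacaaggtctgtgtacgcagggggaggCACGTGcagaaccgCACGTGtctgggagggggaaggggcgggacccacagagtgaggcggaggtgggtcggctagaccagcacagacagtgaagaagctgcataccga
Dbp: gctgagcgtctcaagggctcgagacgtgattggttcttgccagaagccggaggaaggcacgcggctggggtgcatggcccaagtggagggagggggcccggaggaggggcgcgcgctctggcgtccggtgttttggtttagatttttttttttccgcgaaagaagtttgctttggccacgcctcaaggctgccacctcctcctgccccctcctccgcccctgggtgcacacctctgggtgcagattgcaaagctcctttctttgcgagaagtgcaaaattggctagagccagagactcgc
The Ciart window held 3 E-boxes, at positions -116, -58 and -44 from the start site, and the Dbp window held neither motif. Among 14 measured clock genes with a window, 3 held an E-box (Ciart, Per1 and Tef) and 2 a D-box (Per3 and Rorb). Over all 27025 genes with a window the shares were 8.09% for the E-box and 2.72% for the D-box.

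Across the clock, 5 of 16 measured genes had an unadjusted p under 0.05, all higher after methamphetamine, against 2.05% of all genes in that direction, and none passed the threshold. The 5 were Ciart, Dbp, Nr1d2, Bhlhe40 and Per2. The list's median was 0.08, or 0.132 with no slide term, beside 0 for all genes, or 0.014. The list was chosen with earlier results of these data known, and it held Ciart. Dbp encodes a transcription factor that carries the rhythm to D-box genes. Its level was 13.42, 13.31 and 13.51 after methamphetamine and 12.92, 13.03 and 13.07 after saline, without overlap. The log2 difference was 0.43 (SE 0.146, 95% interval 0.14 to 0.73). Per2, a core repressor, stood at 11.01, 11.45 and 10.98 after methamphetamine and at 10.70, 10.90 and 10.32 after saline. Its arrays did not overlap, and methamphetamine replicate 2 was the highest. The difference of 0.46 (SE 0.182, 95% interval 0.10 to 0.83) was 0.09 in the first run of slide numbers and 0.72 in the second. A second Per2 probe, nearly as bright, gave 0.29 with overlap.

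For 2 of the 5 clock genes the arrays overlapped. Nr1d2, a nuclear receptor that represses Arntl, stood at 10.50, 11.23 and 9.76 after methamphetamine and at 10.82, 10.45 and 10.53 after saline. Methamphetamine held both the highest and the lowest array. The fitted difference was 0.33 (SE 0.113), while the plain means differed by -0.10, so its direction depended on the slide term. A second Nr1d2 probe gave 0.00. Bhlhe40, a repressor of E-box genes, stood at 10.96, 11.30 and 10.56 against 10.73, 10.72 and 10.69, with a fitted difference of 0.41 (SE 0.149) and plain means 0.23 apart. Bhlhe40 was named after its values were seen. Arntl and Npas2, partners on the activating side, had negative differences that missed the threshold, -0.19 (SE 0.116, plain means -0.40 apart) and -0.15 (SE 0.153), and Clock was at 0.08 (SE 0.0791). Per1 was at 0.17 (SE 0.184) and Per3 at 0.12 (SE 0.102).

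**Figure D2:**
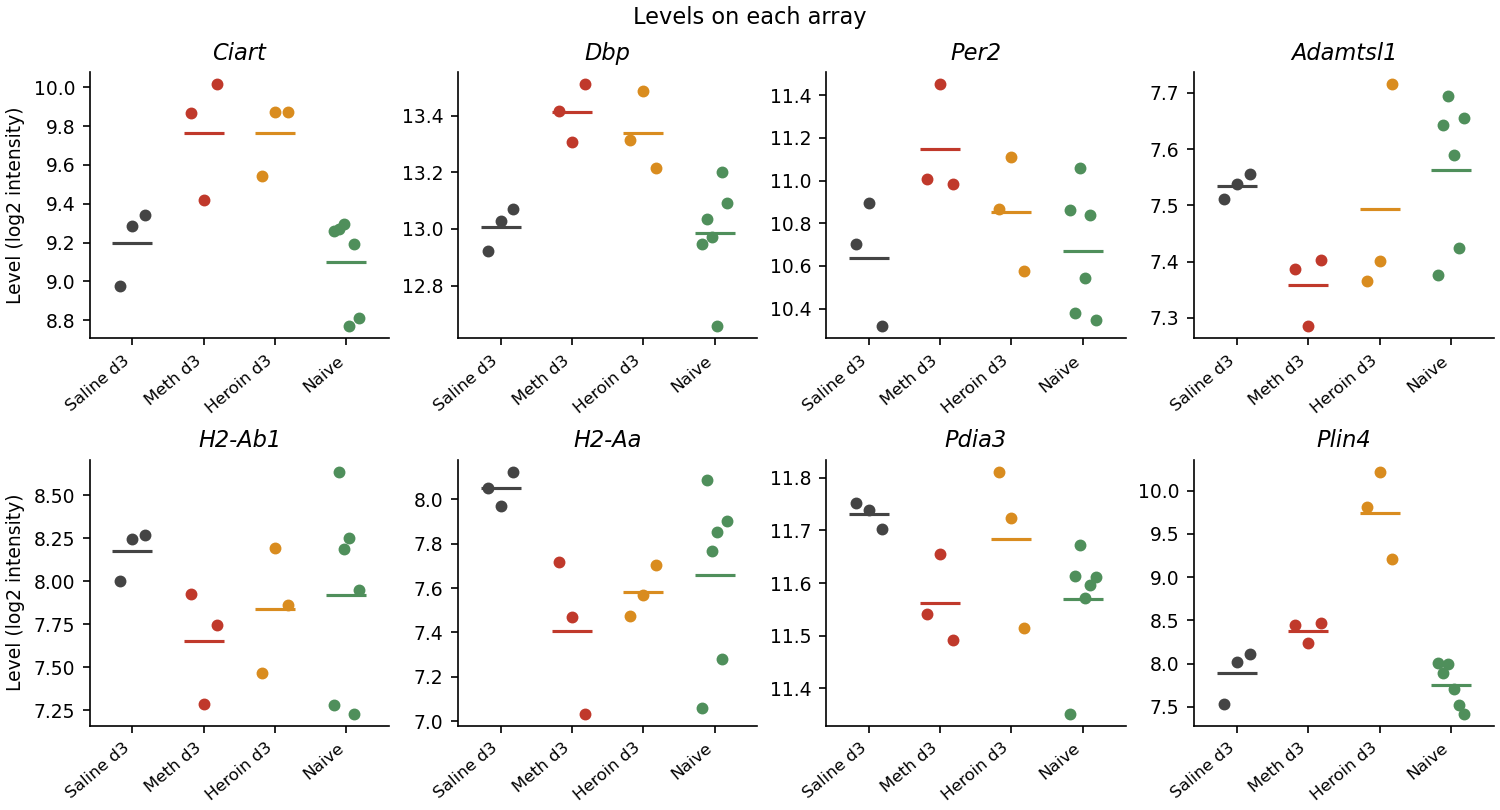
Log2 level of 8 genes on each array (points) with the group mean (line) for saline day 3, methamphetamine day 3, heroin day 3 (3 arrays each) and naive mice (6 arrays). The methamphetamine points lie wholly above the saline points for Ciart, Dbp, Per2 and Plin4 and wholly below them for Adamtsl1, H2-Ab1, H2-Aa and Pdia3.

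The genes with the smallest p among those whose arrays did not overlap upwards had differences between 0.26 and 0.67, and non-overlap chose them, so it is no evidence for them. After Ciart came Rhpn2, at 7.73, 7.83 and 7.73 against 7.48, 7.51 and 7.31. Its difference was 0.39 (SE 0.0924). The other 10 were Ccdc159 (0.38), Trarg1, a regulator of glucose transporter traffic (0.44), Lin37, a subunit of the cell cycle repressor DREAM (0.42), Brd2, a reader of acetylated histones (0.26), 2610318N02Rik (0.35), Nop2, an rRNA methyltransferase (0.31), Sh3glb1, a membrane-bending endophilin (0.31), Dbp, Gpsm2, a G-protein modulator that orients the spindle (0.34), and Tpst2, a tyrosine sulfotransferase of the Golgi (0.27). The plain means differed by less for Trarg1 (0.26) and Nop2 (0.19). Trarg1 and 2610318N02Rik were dim, with lower mean levels on the day 3 arrays than any gene of the opposite list below. Further probes past the filter disagreed in part. One was at -0.03 for Sh3glb1 and one at 0.07 for Nop2, both with overlap. Another Nop2 probe was at 0.25 and a Tpst2 probe at 0.27, both without overlap. No theme was tested for these genes.

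In the other direction the 12 genes chosen the same way had differences between -0.21 and -0.83. Adamtsl1, a secreted glycoprotein of the extracellular matrix, stood at 7.39, 7.29 and 7.40 after methamphetamine and at 7.51, 7.54 and 7.55 after saline. The arrays lay close together within each group and did not overlap. The fitted difference was -0.38 (SE 0.0832, adjusted p 0.201), and the plain means differed by -0.18. Spon2, also a matrix protein, was at -0.52 (SE 0.164), with 7.04, 6.96 and 7.13 against 7.35, 7.59 and 7.38. The rest were Pdia3, H2-Ab1 and H2-Aa, described below, and Wdr83os (-0.30), Ttc1 (-0.23), Rpe65, the retinoid isomerase of the eye (-0.36), Thada (-0.33), Txndc9 (-0.28), Slc23a3 (-0.40) and Ogfod1, a hydroxylase of a ribosomal protein (-0.21). The plain means lay nearer to 0 for all of these genes except Ogfod1 (-0.24). They were -0.39 apart for Spon2, -0.19 for Wdr83os, -0.17 for Ttc1, -0.35 for Rpe65, -0.21 for Thada, -0.11 for Txndc9 and -0.18 for Slc23a3. Slc23a3 and Txndc9 were dim, at mean levels of 7.05 and 7.08 on the day 3 arrays.

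The genes of MHC class II, which present peptides to helper T cells and in the brain are borne by border macrophages, blood cells and activated microglia, had the most negative median of the 34 lists, -0.585, or -0.354 with no slide term. All 6 measured members were below 0 in the fit, though H2-DMa turned positive in the plain means, and 4 had an unadjusted p under 0.05, against 1.65% of all genes in that direction. In these bulk samples, fewer cells of a type and less RNA per cell cannot be told apart. H2-Ab1, the beta chain of the I-A molecule, stood at 7.93, 7.29 and 7.75 after methamphetamine and at 8.00, 8.25 and 8.27 after saline. The groups did not overlap, although methamphetamine replicate 1 and saline replicate 1 differed by little. The log2 difference was -0.83 (SE 0.278, 95% interval -1.39 to -0.27, adjusted p 0.999), against -0.52 from the plain means. H2-Ab1 had 2 further probes, at -0.52 and -0.21, both with overlap.

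The alpha chain gene H2-Aa stood at 7.72, 7.47 and 7.03 after methamphetamine and at 8.05, 7.97 and 8.13 after saline, again without overlap. Its difference was -0.72 (SE 0.249, 95% interval -1.22 to -0.22). Cd74, the invariant chain that guides class II molecules to the endosome, stood at 8.13, 7.54 and 8.24 against 7.79, 8.63 and 8.64, and here saline replicate 1 lay below 2 of the methamphetamine arrays. Its difference was -0.69 (SE 0.314), against -0.38 from the plain means. H2-DMb1, a chain of the peptide editor, was at -0.18 (SE 0.0857) without overlap, its partner H2-DMa at -0.01 (SE 0.113, plain means 0.09 apart), and H2-Eb1, the beta chain of the I-E molecule, at -0.48 (SE 0.250). H2-DMb1, H2-DMa and H2-Eb1 were named after their values were seen.

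The class II values were also set beside the naive and heroin arrays. The list's mean level was 8.05, 7.71 and 8.00 after methamphetamine and 8.07, 8.31 and 8.39 after saline, while the 6 naive arrays spread from 7.64 to 8.55 and so held both groups. Against naive arrays the list's median was -0.27 for methamphetamine day 3 and 0.24 for saline day 3. Heroin on day 3, which shares the saline arrays, had a median of -0.50, or -0.313 with no slide term. Set directly against heroin, methamphetamine differed by -0.07 for H2-Ab1, -0.08 for H2-Aa and 0.10 for Cd74, and with no slide term by -0.19, -0.17 and -0.01. The list's median stayed below 0 in all 23 settings, between -0.78 and -0.125, and between -0.68 and -0.44 when single arrays were left out. Of 13 microglial markers 5 were above 0 and 8 below, with a median of -0.05, and the list's mean level lay at 9.57 to 9.89 after methamphetamine and 9.75 to 9.86 after saline. Of 6 blood markers 2 were above 0 and 4 below, with a median of -0.305, or -0.034 with no slide term, and mean levels of 9.50 to 9.69 against 9.44 to 9.75. The part of these cells in the class II values was not tested.

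**Figure D3:**
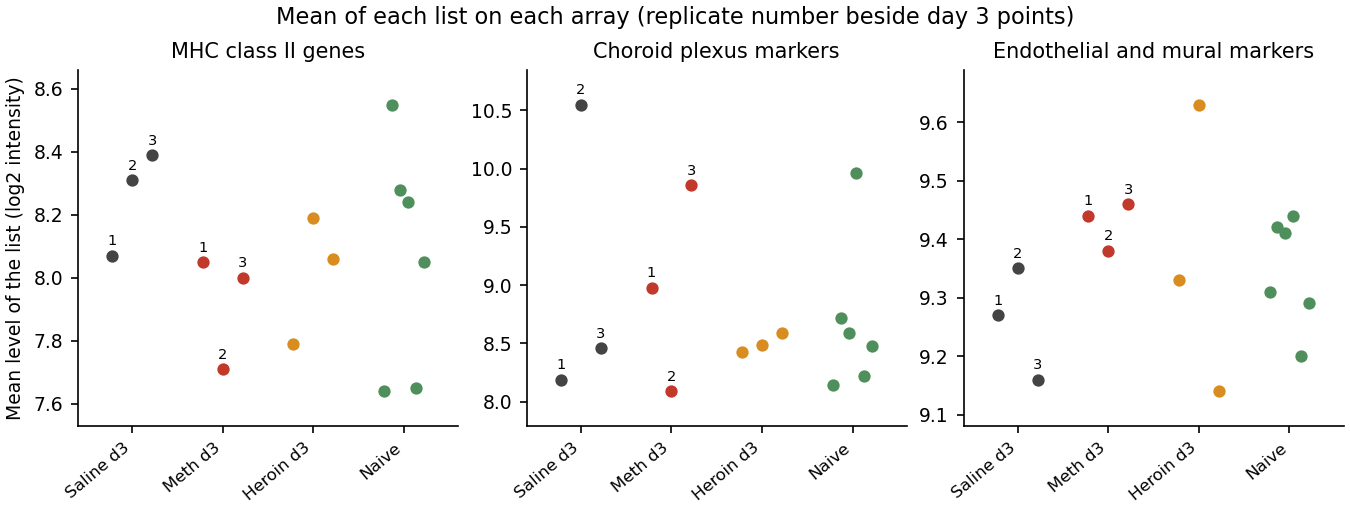
Mean log2 level of 6 MHC class II genes, 9 choroid plexus markers and 12 endothelial and mural markers on each array of saline day 3, methamphetamine day 3, heroin day 3 and naive mice, with replicate numbers beside the day 3 saline and methamphetamine points. The class II means of the day 3 groups just miss each other (8.05 and 8.07), and saline replicate 2 (10.55) and methamphetamine replicate 3 (9.86) stand high in choroid plexus markers.

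Markers of the choroid plexus, which borders the ventricle beside the striatum, differed widely between the samples. The share of plexus tissue in the samples was not tested. The marker Ttr, the thyroxine carrier of the plexus, stood at 13.62, 8.58 and 15.11 after methamphetamine and at 8.86, 15.73 and 10.08 after saline. High and low arrays occurred in both groups, and the difference of -1.02 had an SE of 2.19 and a 95% interval of -5.42 to 3.39. The plain means differed by 0.88, and leaving out single arrays moved the fitted difference between -3.75 and 1.34. The sign thus depended both on the slide term and on single arrays. The mean level of the 9 measured markers was 8.98, 8.09 and 9.86 after methamphetamine and 8.19, 10.55 and 8.46 after saline. All 9 had a negative difference, none with an unadjusted p under 0.05, and the median was -0.46. It was -0.236 with no slide term, 0.255 without saline replicate 2 and -0.873 without methamphetamine replicate 3.

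Genes for protein folding in the endoplasmic reticulum (ER) had a median of -0.13. Of 16 measured members 12 were below 0, 3 had an unadjusted p under 0.05 and a negative difference (1.65% of all genes), and none passed the threshold. The 3 were Pdia3, Pdia4 and Sdf2l1. Pdia3, a disulfide isomerase that acts on glycoproteins, stood at 11.54, 11.65 and 11.49 after methamphetamine and at 11.75, 11.74 and 11.70 after saline, without overlap. The fitted difference was -0.30 (SE 0.0854, adjusted p 0.999) and that of the plain means -0.17. Pdia4, a related isomerase, was at -0.35 (SE 0.117), with plain means -0.20 apart and overlapping arrays. Sdf2l1, a cofactor of the chaperone Hspa5, was at -0.32 (SE 0.150), against -0.15 from the plain means, also with overlap. The chaperone genes Hspa5 and Hsp90b1 were at -0.09 (SE 0.161) and -0.07 (SE 0.118), and their plain means were -0.29 and -0.14 apart. Ddit3, the gene of the stress factor CHOP, was at -0.21 (SE 0.124), against -0.14 from the plain means.

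The ER stress element, CCAAT and CCACG with 9 bases of any kind between them, searched on both strands of the same RefSeq windows, was present in 6 of 15 members with a window, against 0.137% of all genes. The 6 were Calr, Creld2, Dnajc3, Hsp90b1, Hspa5 and Pdia6. None of Pdia3, Pdia4 and Sdf2l1 held these letters in the window. The median of the cytosolic heat shock list was -0.06 over 15 genes, none with an unadjusted p under 0.05.

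**Figure D4:**
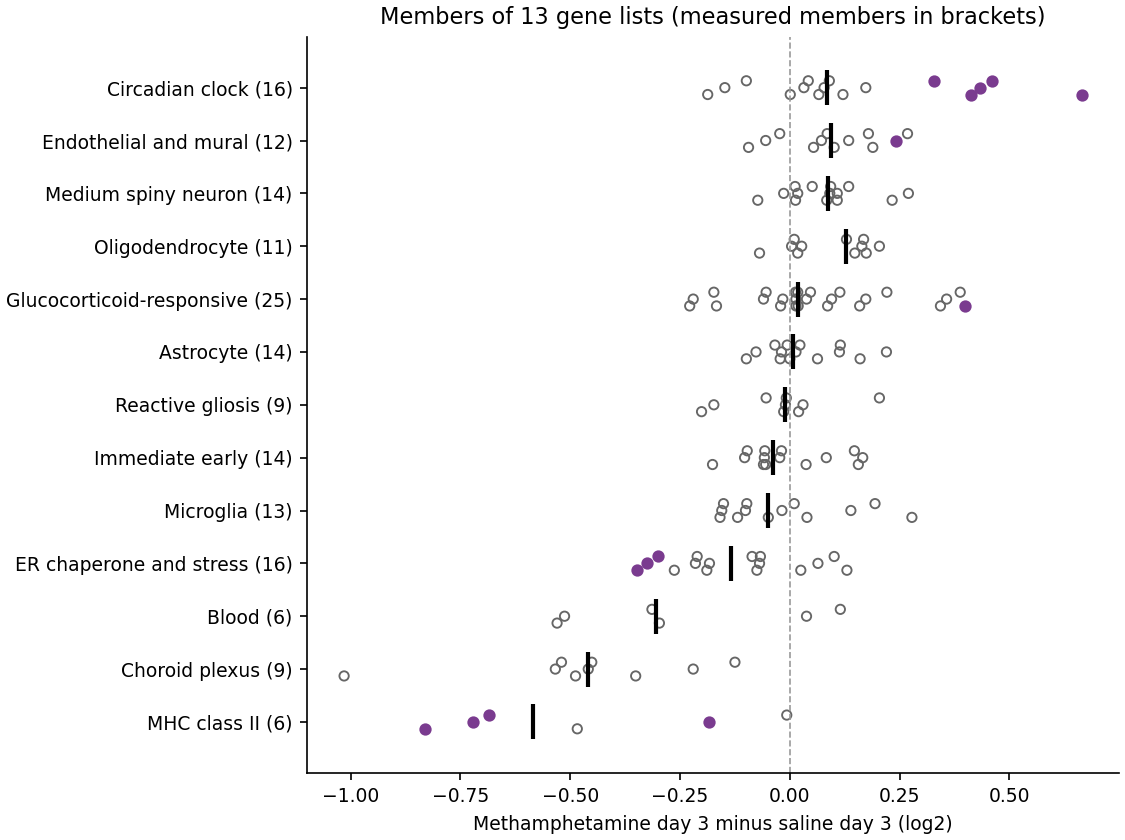
Each point is a measured member of 1 of 13 gene lists, placed by its log2 difference on day 3 (x axis). Filled points have an unadjusted p under 0.05, open points do not, and the bar is the list's median. The clock list holds the filled points farthest to the right, and the class II list has the lowest median (-0.585).

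Vessel genes gave no call past the threshold. Of 12 endothelial and mural markers 9 had a positive difference, the median was 0.09, and in 5 the arrays did not overlap upwards, against 4.11% of all genes. Only Mfsd2a, the lipid transporter of the blood-brain barrier, had an unadjusted p under 0.05, against 2.05% of all genes in that direction. It stood at 10.25, 10.32 and 10.54 after methamphetamine and at 10.18, 10.15 and 9.83 after saline, and its difference was 0.24 (SE 0.118, 95% interval 0.01 to 0.48). Slc2a1, the glucose transporter of the barrier, was at 0.27 (SE 0.153) and Slco1a4, an organic anion transporter, at 0.19 (SE 0.132). Neither excluded 0, and Cldn5, the tight junction gene, was at -0.09 (SE 0.219) and turned to 0.12 in the plain means.

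Genes that respond to glucocorticoids, the hormones of the stress axis, had a median of 0.02 over 25 members on day 3. For methamphetamine on days 6 and 12 the same median was 0.18 and 0.28, and for heroin on day 3, which shares the saline arrays, it was 0.19. With no slide term these medians were 0.132 on day 3, 0.145 on days 6 and 12 and 0.274 for heroin, so the gap between the days rested on that term. In 4 members the arrays did not overlap upwards, against 4.11% of all genes, and only Xdh had an unadjusted p under 0.05 and a positive difference, against 2.05%. Xdh, the gene of xanthine oxidoreductase, stood at 7.94, 7.68 and 8.06 after methamphetamine and at 7.31, 7.64 and 7.39 after saline, a difference of 0.40 (SE 0.166). Sult1a1, a phenol sulfotransferase, was at 0.36 (SE 0.178), with 9.60, 9.70 and 9.77 against 9.29, 9.51 and 9.21. Sgk1, a kinase that regulates ion channels, was at 0.34 (SE 0.228), Hif3a at 0.22 (SE 0.248) and Fkbp5, a co-chaperone of the receptor, at 0.05 (SE 0.116, plain means 0.16 apart). The metallothioneins Mt1 and Mt2 were at -0.07 (SE 0.0917) and -0.05 (SE 0.209), and the plain means of Mt2 turned to 0.13.

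Plin4, a coat protein of lipid droplets, showed where day 3 of methamphetamine stood apart from the other drug. It stood at 8.44, 8.23 and 8.47 after methamphetamine and at 7.53, 8.02 and 8.11 after saline. The arrays did not overlap, yet the difference of 0.39 had an SE of 0.255 and a 95% interval of -0.12 to 0.90. On the heroin day 3 arrays it stood at 9.81, 10.22 and 9.21, above every methamphetamine and saline array of that day. The direct difference of methamphetamine from heroin on day 3 was -1.29 (SE 0.244), and it was the only gene past the threshold in that comparison, with limma's adjusted p at 0.0389 (0.00808% of genes). Plin4 passed in 12 of 21 other settings. It missed the threshold when methamphetamine replicate 1 or 3 or heroin replicate 1 or 2 was left out, with differences of -1.23, -1.22, -1.06 and -1.15 and adjusted p between 0.347 and 0.565. Against saline of the same day heroin gave 1.68 (adjusted p 4.846e-04), a comparison that shares the saline arrays.

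**Figure D5:**
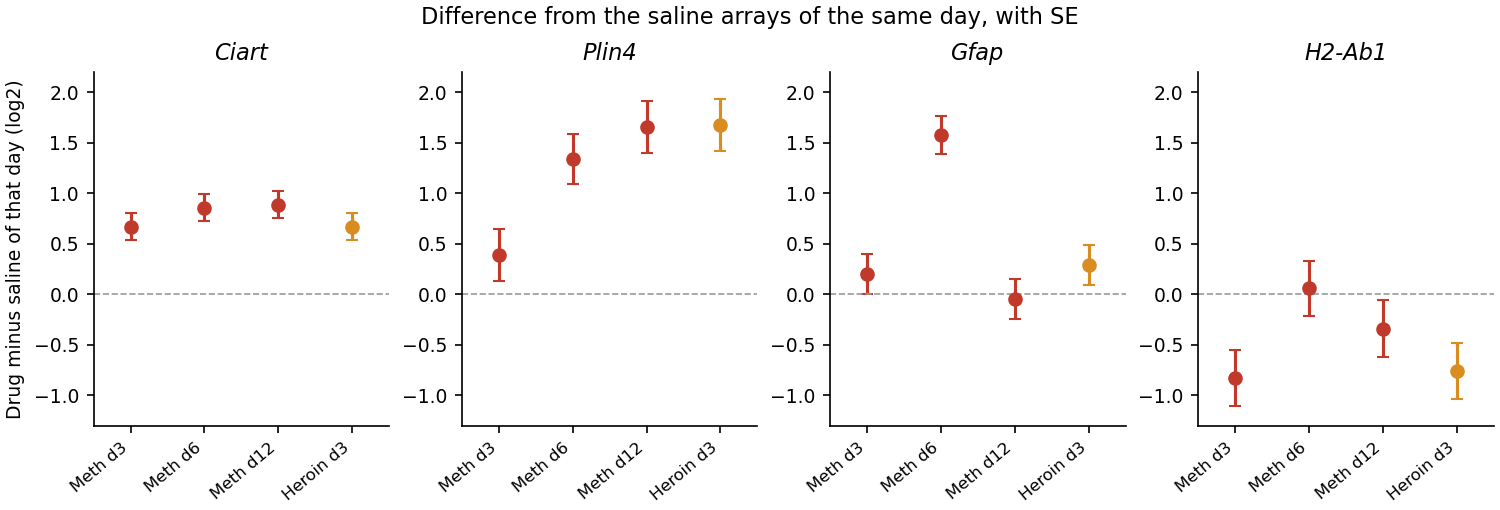
Log2 difference from the saline arrays of the same day, with SE, for Ciart, Plin4, Gfap and H2-Ab1 after methamphetamine on days 3, 6 and 12 and heroin on day 3. On day 3 of methamphetamine Ciart is at 0.67, Plin4 at 0.39, Gfap at 0.20 and H2-Ab1 at -0.83; heroin day 3 shares its saline arrays with methamphetamine day 3.

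Against the later days, each with its own saline arrays, the difference of day 3 passed the threshold for no gene. For day 3 minus day 6 limma called 0 genes (0%) and 424 had an unadjusted p under 0.05 (3.43%), and for day 3 minus day 12 it called 0 (0%) with 411 under 0.05 (3.32%). Against the mean of both later days it called 0 (0%), with 398 under 0.05 (3.22%). Ciart passed on day 6 at 0.86 and on day 12 at 0.89, and its day 3 difference stood -0.20 (SE 0.187) and -0.22 (SE 0.2205) from those, with adjusted p of 0.9996 and 0.9999, and -0.33 and -0.42 with no slide term. Plin4 rose by 1.34 on day 6 and 1.66 on day 12. Its day 3 difference stood -0.95 and -1.27 from those, with adjusted p of 0.9996 and 0.9999. The later days passed the threshold for 7 genes on day 6 (0.0566%) and 3 on day 12 (0.0243%).

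Gfap, the intermediate filament of astrocytes and a marker of their reaction to injury, was the gene nearest to a tested difference between days. It stood at 10.69, 10.64 and 10.84 after methamphetamine on day 3 and at 10.25, 10.57 and 10.88 after saline, which overlapped. The difference was 0.20 (SE 0.195, 95% interval -0.19 to 0.60). On day 6 Gfap rose by 1.58, with methamphetamine arrays between 11.77 and 12.57. Day 3 minus day 6 was -1.38 (SE 0.270, adjusted p 0.0722). It passed the threshold in 6 of 27 other settings, among them the fit with no slide term, at -1.47 and an adjusted p of 3.191e-05. With each of 12 arrays left out in turn, Gfap passed in 2 fits. These were without saline day 3 replicate 1 (-1.49, adjusted p 0.0280) and without methamphetamine day 6 replicate 2 (-1.64, adjusted p 0.00163). Without methamphetamine day 6 replicate 1 the difference was nearest to 0, at -1.09 (adjusted p 0.9998). Without saline day 3 replicate 3 the adjusted p was 0.7795. The complement gene C4a was at 0.02 on day 3 and 0.84 on day 6, Hspb6, a small heat shock protein, at 0.07 and 0.58, and Dhrs1 at -0.04 and 0.47. For all 3 the day 6 value passed the threshold and the difference between days did not. With no slide term C4a was at 0.13 and 0.78, and the day 6 calls of Hspb6 (0.47, adjusted p 0.183) and Dhrs1 (0.37, adjusted p 0.617) were lost. Over 9 measured genes of reactive gliosis the day 3 median was -0.01, against 0.43 on day 6. These were 0.142 and 0.436 with no slide term. For day 12 the nearest was H2-T24, a nonclassical class I gene that was dim, at a mean level of 6.89 on the day 3 arrays. Its day 3 minus day 12 was -0.79 (SE 0.156, adjusted p 0.0784). It passed in 3 of 26 other settings, the deposited values (-0.14, adjusted p 0.0420) and without saline day 3 replicate 2 (-0.83, 0.0458) or methamphetamine day 3 replicate 1 (-0.84, 0.0253). With no slide term it was -0.43 (adjusted p 0.9992), and without methamphetamine day 3 replicate 3 it was -0.69 (0.9991).

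Genes of neuronal activity gave no call on day 3. Of 14 immediate early genes none had an unadjusted p under 0.05, 5 were above 0 and 9 below, and the median was -0.04, or 0.165 with no slide term. Fos stood at 9.07, 9.41 and 8.21 after methamphetamine and at 8.70, 8.56 and 8.36 after saline. Methamphetamine held the highest and the lowest array, and the difference was -0.05 (SE 0.325, 95% interval -0.71 to 0.60), against 0.36 from the plain means. Arc was at -0.02 (SE 0.362), Npas4 at -0.06 (SE 0.263) and Egr1 at 0.17 (SE 0.198, plain means 0.11 apart). The plain means were 0.26 apart for Arc and 0.29 for Npas4, so these signs too depended on the slide term. For 13 later activity-regulated genes the median was -0.01, or 0.052 with no slide term. Bdnf, the neurotrophin, was at -0.15 (SE 0.337, plain means 0.12 apart) and Homer1, a scaffold of metabotropic glutamate receptors, at 0.08 (SE 0.128, plain means 0.01 apart).

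Markers of the striatal neurons gave no call. Of 14 general medium spiny markers 12 were positive with a median of 0.09, of 8 direct pathway markers 7 with a median of 0.14, and of 6 indirect pathway markers 5 with a median of 0.07. With no slide term these medians were 0.002, 0.040 and -0.076, so the last changed sign. None of them had an unadjusted p under 0.05. Drd1 stood at 12.75, 12.81 and 12.92 after methamphetamine and at 12.66, 12.87 and 12.58 after saline, a difference of 0.37 (SE 0.384), against 0.12 from the plain means. Pdyn, the dynorphin precursor, was at 0.32 (SE 0.312), Tac1 at 0.07 (SE 0.361), Drd2 at 0.07 (SE 0.359) and Penk, the enkephalin precursor, at 0.35 (SE 0.387). Without the slide term Drd2, Tac1 and Penk turned to -0.13, -0.04 and -0.08. The intervals of these genes ran to about 1 log2 unit, from -0.40 to 1.15 for Drd1, so they bound the receptor and peptide genes less closely than most. Th, the enzyme of dopamine synthesis, was at 0.50 (SE 0.286, plain means 0.29 apart), with 8.24, 7.79 and 8.14 against 7.55, 7.85 and 7.89, which overlapped.

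Glial markers gave medians of 0.01 for 14 astrocyte, -0.05 for 13 microglial, 0.13 for 11 oligodendrocyte and -0.06 for 9 oligodendrocyte precursor genes. Fitted without the slide term, these were -0.029, -0.054, 0.011 and 0.008. Among them only Gpr17, a receptor of precursors about to differentiate, had an unadjusted p under 0.05. Over all genes 1.65% did so in that direction, and 1 gene among these lists is near that share. It stood at 9.75, 9.28 and 9.55 after methamphetamine and at 9.76, 9.75 and 9.75 after saline, with replicate 1 at the level of the saline arrays. Its difference was -0.40 (SE 0.129), against -0.23 from the plain means. In the oxidative stress list, with a median of -0.03 over 14 genes (-0.065 with no slide term), Slc7a11, the cystine transporter, was at -0.42 (SE 0.180, plain means -0.27 apart) without overlap. The other Slc7a11 probes, all dimmer, lay between -0.15 and -0.05, each with overlap. Gclc, the catalytic subunit of glutathione synthesis, was at 0.33 (SE 0.126) with overlap and turned to -0.12 in the plain means.

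The naive arrays gave a second control group, and there 3 genes passed. With 3 methamphetamine arrays against 6 naive arrays limma called Ciart and Sult1a1 higher and Adamtsl1 lower (0.0243% of genes). Ciart on naive arrays ranged from 8.77 to 9.30 with a mean of 9.10, below every methamphetamine day 3 array. It rose by 0.59 (SE 0.0999, adjusted p 0.00507). Sult1a1 ranged from 8.80 to 9.27 on naive arrays and rose by 0.66 (adjusted p 0.0294), both without overlap with methamphetamine day 3. Adamtsl1 ranged from 7.38 to 7.69, which overlapped the methamphetamine arrays, and fell by 0.33 (adjusted p 0.0121). With no slide term the differences from naive were -0.21 for Adamtsl1 (adjusted p 0.9988), 0.67 for Ciart (0.4415) and 0.66 for Sult1a1 (0.2031), and no call held. On saline day 3 arrays Ciart, Sult1a1 and Adamtsl1 differed from naive by -0.08, 0.31 and 0.05, and with no slide term by 0.10, 0.31 and -0.03. In that comparison limma called 0 genes (0%), and 478 had an unadjusted p under 0.05 (3.86%). The Ciart call held in 14 of 24 other settings, with differences from 0.22 on the compressed deposited scale to 0.67. It was lost without any 1 of methamphetamine replicates 1, 2 and 3 or without naive replicate 6, at differences of 0.55, 0.61, 0.59 and 0.56 and adjusted p between 0.0507 and 0.130. The calls of Sult1a1 and Adamtsl1 held in 9 and 12 of 24 other settings. Both were lost without any 1 of methamphetamine replicates 1, 2 and 3 or without naive replicate 6, and that of Sult1a1 also without naive replicate 3 or 5. All 6 naive arrays lay at position F of their slides, and the methamphetamine day 3 arrays at A, A and B. With array position as a term Ciart was at 0.48 (SE 0.434), Adamtsl1 at -0.29 (SE 0.261) and Sult1a1 at -0.11 (SE 0.510). Each had a limma adjusted p of 0.996. Position and treatment can thus hardly be told apart in this comparison.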

How the data were processed

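Total RNA of mouse striatum was hybridised to Illumina expression arrays as biotin-labelled cRNA, 6 arrays per slide, per the labels. Per the file headers, the deposited non-normalized table lists an intensity, not log-transformed, for every probe on each array. A second deposited table has log2 values, with array medians between 6.936 and 6.948. Its software, background correction and normalization are not given in the sources used here, and its differences are compressed (slope 0.303 on those computed here). Sample columns were matched to the labels by day, drug and phase.

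Background correction had been planned for tables with detection p-values, which neither table gives. Instead, intensities were quantile-normalized and log2-transformed, as planned for that case. A probe was retained (23810 of 45281) where some group, of 25, had every array above its own median for it. Of all probes, 34885 had 1 gene symbol in the platform annotation, 18 several and 10378 none. The probe with the highest mean stood for each of 12371 genes, and other probes can disagree.

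limma 3.58.1 (R 4.3.3) fitted all 78 arrays with 25 group means and 13 slides (37 coefficients, 41 residual degrees of freedom). Tests were two-sided, Benjamini-Hochberg adjusted over all genes, threshold 0.05. The fit was tested on simulated data. The comparison, members and 34 gene lists were chosen with earlier results of these data known. Named genes are, per direction, the 12 with the smallest p among those with non-overlapping arrays; up to 3 per list by p; for each other contrast up to 5 per direction past the threshold, or the 3 with the smallest p; and 30 genes chosen for what is known of them. Alternatives were the deposited values, normexp (offset 50), median centring, other filters, all probes, other slide terms, array position, subsets of arrays, the replicate block, other variance models and leaving out arrays. The deposited values without a slide term, list medians under all settings, and values without a slide term in the other comparisons were added after the data were seen.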

Additional observations from a re-analysis of the deposited data

Results flagged for a closer look

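One difference between the drugs was tested directly and passed. Plin4 differed between methamphetamine and heroin on day 3 by -1.29 (SE 0.244, limma's adjusted p 0.0389), with every heroin array above every methamphetamine array. Choroid plexus markers on these arrays were at a mean level of 8.43 to 8.59 after heroin and 8.09 to 9.86 after methamphetamine, and blood markers at 9.58 to 10.17 after heroin and 9.50 to 9.69 after methamphetamine. Their part in the difference was not tested.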

How the results depend on the processing

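The day 3 comparison with saline called 0 genes in every setting run except array weights (1, Ciart). Over its settings 101 to 916 genes or probes had an unadjusted p under 0.05. The deposited values called 1 gene for day 3 minus day 12, 0 against heroin, 9 against naive and 2 for heroin against saline. Against heroin, normexp, all probes, the larger run of slides alone, only the arrays compared and robust trended variances each called 0. Against naive, median centring and only the arrays compared called 1, and no slide term, the run term, the larger run alone and array position called 0. Day 3 minus day 6 called 1 with no slide term, a random slide block, the run term or without the day 1 methamphetamine arrays. Day 6 against saline called 11 with all probes, 13 with the random block, 2 with only the arrays compared and 19 with array weights, and day 12 called 7, with all probes or array weights, 1 in the larger run and 5 with only the arrays compared. Heroin against saline called 2 with no slide term, without day 1, robust variances or array weights, 4 with the random block, 10 with the run term and 0 with only the arrays compared. For these changes the cause was not tested.

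Leaving out single arrays gave 0 to 0 calls for day 3 against saline, 0 to 2 for day 3 minus day 6, 0 to 1 for day 3 minus day 12, 0 to 1 against heroin, 0 to 3 against naive, 4 to 10 for day 6, 2 to 3 for day 12 and 0 to 1 for heroin against saline. Same-numbered samples did not deviate together (correlations -0.038, -0.438 and 0.072). With slide-adjusted values the correlations were 0.038, -0.216 and 0.063. No pairing by number was seen, but 3 samples a group on different slides cannot exclude it. With the replicate block the day 3 comparison called 0 genes, and that against naive 0. Of the values of named genes 3019 kept their direction and their side of the threshold, 239 changed sign without a call and 1 passed. The precision was limited by 3 arrays a group, on slides that the groups did not share, and dim probes lie near background.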
